A study of Mus musculus with 15 samples.

Results

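Gas1, Gas2, Gas6, Pmp22 and Cd34 are 5 mouse genes that are either named for their rise when fibroblasts stop growing or used as surface markers of resting progenitor cells. They were selected on their symbols, with earlier results of these arrays in view, so their signal in every group was open to the choice and is given below as a description, without a test. They are 5 of the 8251 genes that the platform annotation names on the array, and all probe sets that carry one of these symbols alone were taken, 8 of 12488. Gas1 and Gas6 had 1 probe set each, and Gas2, Pmp22 and Cd34 had 2 each. Of the 8, 6 passed the filter on low signal, a mean intensity of at least 22.3 over the arrays, and the others, 1 of Gas2 and 1 of Pmp22, were too dim to compare.

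RNA came from mouse MC3T3 clone 1b, a subclone of an immortalised line of calvarial osteoblast precursors, so all groups are 1 clonal line in culture. It was hybridised to 15 single-colour oligonucleotide arrays, 3 in each of 5 groups. Treated cultures received bone morphogenetic protein 2 (BMP-2) and ascorbic acid (AA) on top of beta-glycerol phosphate (GP) and were taken at day 1 and day 3. GP cultures received GP alone and were taken at the same days, and the day 0 cultures were in control medium. GP supplies phosphate for mineral, ascorbic acid is needed for the hydroxylation of collagen, and BMP-2 drives osteoblast differentiation. AA and BMP-2 were always given together, so their effects cannot be told apart, and between day 0 and GP day 1 the medium and the time changed together. Each array carried a preparation number, 1 to 3, and arrays with the same number deviated together, so differences are also given within each preparation.

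The growth-arrest-specific genes were first collected as transcripts that accumulate in fibroblasts deprived of serum. They have little in common as proteins. Gas1 is a membrane-anchored protein that binds hedgehog ligands as a co-receptor and can slow cell division when overproduced. Gas6 is a secreted, vitamin K-dependent ligand of the receptor kinases Tyro3, Axl and Mertk. Gas2 is a protein associated with actin filaments and microtubules that caspases cleave in dying cells. Pmp22, also found as a growth-arrest-specific gene, is a membrane protein with several membrane-spanning segments that is abundant in the myelin of peripheral nerve and also made by other cell types. Cd34 is a heavily glycosylated sialomucin carried by blood and endothelial progenitors and by some mesenchymal cells.

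Promoter windows are shown for the members whose signal differed between treated and GP cultures without overlap at day 3. Gas1 and Gas2 both overlapped at day 3. The Gas1 window, which held the GGCGCC marked below, is shown as well, and those of Gas2, which did not, are left out. The windows shown are therefore not an even sample, and counts over all windows of these genes follow the sequences. For Pmp22 the 2 windows of 4 with a match are shown, and the other 2 held neither motif. Each holds 250 bases before and 50 after an annotated start, in RefSeq's annotation of assembly GRCm38.p6, written 5′ to 3′ on the gene's strand. Capitals mark GGCGCC, a GC-rich element that BMP-activated Smad proteins can bind, and GGGCGG, the GC box of Sp1-type factors, each on either strand, and capitals that run on are adjoining or overlapping matches.
Cd34, chr1:194938571-194938870, plus strand: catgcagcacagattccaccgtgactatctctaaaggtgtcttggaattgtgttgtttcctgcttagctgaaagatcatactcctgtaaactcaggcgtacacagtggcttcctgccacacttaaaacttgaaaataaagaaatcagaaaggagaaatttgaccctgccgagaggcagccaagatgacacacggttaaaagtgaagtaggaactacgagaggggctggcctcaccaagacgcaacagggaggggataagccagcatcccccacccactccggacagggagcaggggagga
Pmp22, chr11:63131207-63131506, plus strand: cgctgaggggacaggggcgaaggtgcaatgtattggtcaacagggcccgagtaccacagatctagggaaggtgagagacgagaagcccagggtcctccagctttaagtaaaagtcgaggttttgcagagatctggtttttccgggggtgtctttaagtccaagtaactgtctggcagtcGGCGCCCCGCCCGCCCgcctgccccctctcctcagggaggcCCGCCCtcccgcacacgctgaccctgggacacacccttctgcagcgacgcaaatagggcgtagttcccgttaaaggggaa
Pmp22, chr11:63132553-63132852, plus strand: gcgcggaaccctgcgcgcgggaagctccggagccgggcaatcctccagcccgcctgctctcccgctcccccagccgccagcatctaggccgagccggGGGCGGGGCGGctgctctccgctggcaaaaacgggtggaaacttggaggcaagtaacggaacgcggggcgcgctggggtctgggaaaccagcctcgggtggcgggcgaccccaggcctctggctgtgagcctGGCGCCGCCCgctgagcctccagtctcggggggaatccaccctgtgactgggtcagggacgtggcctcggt
Gas6, chr8:13494486-13494785, minus strand: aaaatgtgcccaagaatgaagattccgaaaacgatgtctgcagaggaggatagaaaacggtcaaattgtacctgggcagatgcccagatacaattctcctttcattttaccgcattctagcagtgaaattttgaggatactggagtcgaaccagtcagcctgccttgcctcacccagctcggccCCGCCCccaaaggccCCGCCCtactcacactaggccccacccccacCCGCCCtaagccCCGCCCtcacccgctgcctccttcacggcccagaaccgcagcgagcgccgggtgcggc
Gas1, chr13:60177486-60177785, minus strand: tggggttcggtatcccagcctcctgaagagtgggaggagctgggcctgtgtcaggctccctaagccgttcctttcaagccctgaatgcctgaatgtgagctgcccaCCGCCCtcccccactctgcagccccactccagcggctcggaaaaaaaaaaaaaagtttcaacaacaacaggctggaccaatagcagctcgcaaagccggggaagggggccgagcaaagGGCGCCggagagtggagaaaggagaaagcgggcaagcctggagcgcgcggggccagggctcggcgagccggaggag
The table held 9 windows for these genes, 4 of them for Pmp22 and 2 for Gas2. GGCGCC was found in 3 windows, those of Gas1 and of Pmp22 shown here, at 1 match each. GGGCGG was found 4 times in the Gas6 window, 3 times in each Pmp22 window shown and 1 time each in the Gas1 window and in 1 of the 2 Gas2 windows, which made 5 windows of 9. The Cd34 window, 2 of Pmp22 and 1 of Gas2 held neither. Of 32851 promoter windows of the same length, 11.87% held GGCGCC and 35.66% held GGGCGG. The letters TTTGAA, the core of an element found in cell cycle genes, were in 1 Gas2 window and in 17.89% of all windows. The E-box CACGTG was in none of the 9 windows and in 7.15% of all. These matches are letters in the windows shown and say nothing of a factor's binding.

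Pmp22 and Cd34 were lower in treated than in GP cultures at day 1 and lower still at day 3, while Gas1 and Gas6 differed mainly at day 3 and Gas2 mainly at day 1. Over the 6 tested probe sets and 3 preparations, the treated minus GP difference was below 0 in 15 of 18 cases at day 1 and in 16 of 18 at day 3. These cases are not independent, since Cd34 enters with 2 probe sets. At day 3 they include differences near 0, -0.0057 for Gas6 and -0.03 for Gas1 in preparation 1. The same count over all probe sets was not made, so nothing is read from it. The treated arrays lay wholly below the GP arrays for 2 of the 6 probe sets at day 1 and for 4 of 6 at day 3. Among all 7453 tested probe sets that share was 8.63% at day 1 and 9.58% at day 3. The members were chosen on this contrast, so nothing is read from that gap. These are bulk cultures, in which fewer cells that express a gene and less of its RNA per cell cannot be told apart.

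**Figure D1:**
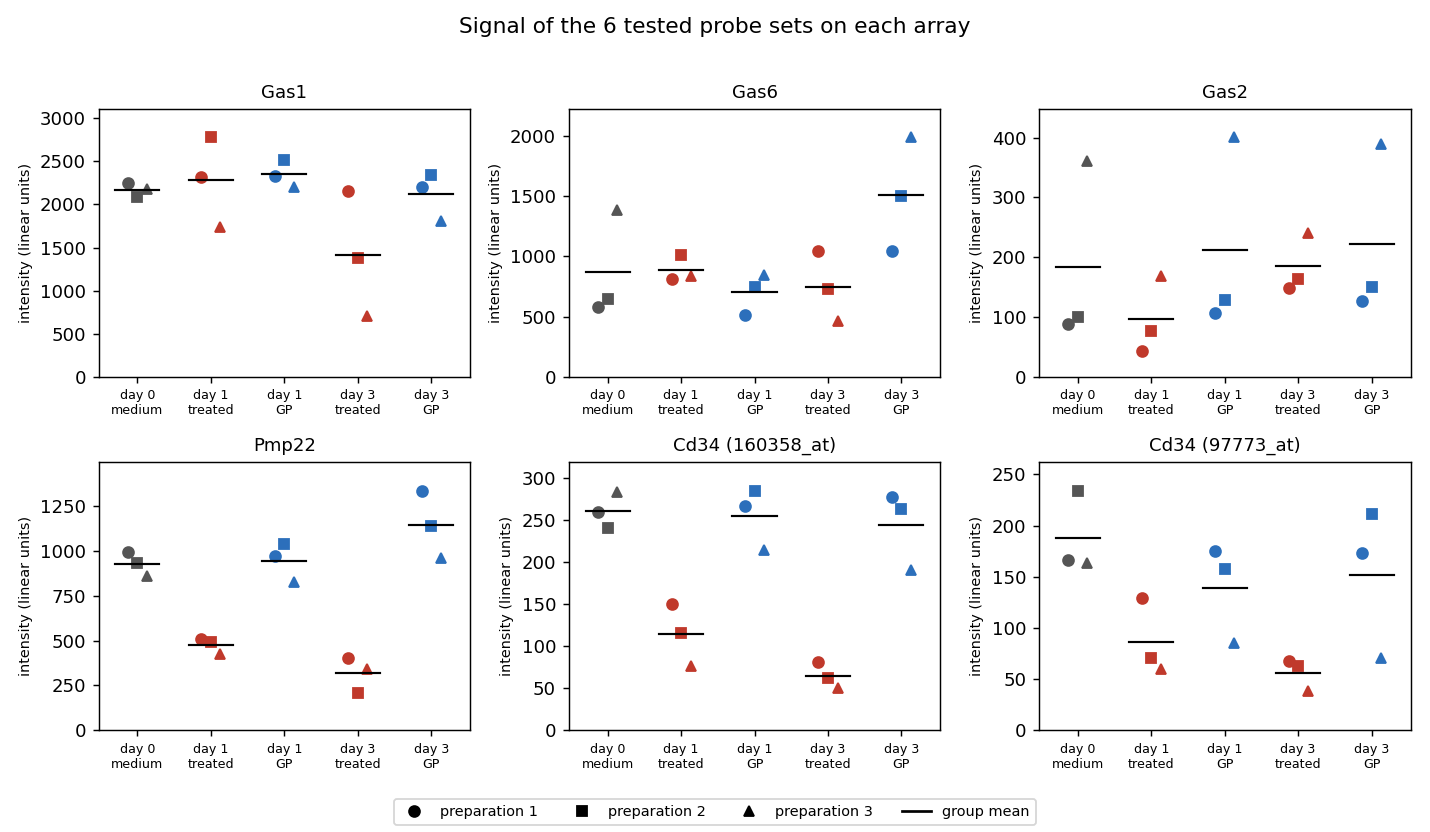
Deposited intensity (linear units, axes from 0) of the 6 tested probe sets on each of 15 arrays, by group, with treated left of GP cultures at each day and bars at the group means. The Pmp22 values of treated cultures lie between 426.3 and 507.2 at day 1 and between 205.7 and 405.3 at day 3, all below the GP and day 0 arrays.

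Pmp22 was lower on every treated array than on any other. Its probe set 102395_at read 507.2, 490.4 and 426.3 in treated cultures at day 1 (preparations 1, 2 and 3), against 972.7, 1038.6 and 825.8 in GP cultures. At day 3 it read 405.3, 205.7 and 341.9 in treated cultures, against 1335, 1138.5 and 957.5 in GP cultures. Day 0 arrays read 993.7, 934.5 and 859.3. The GP and day 0 arrays overlapped.

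In fold terms Pmp22 was 1.99 times lower in treated cultures at day 1 and 3.71 times lower at day 3. The log2 difference, treated minus GP, was -0.99 ± 0.21 (SE of the fit, n = 3 each) at day 1 and -1.89 ± 0.21 at day 3. Within preparations 1, 2 and 3 it was -0.94, -1.08 and -0.95 at day 1 and -1.72, -2.47 and -1.49 at day 3. The preparations therefore differed by less at day 1 than at day 3, where preparation 2 stood lowest. By group mean the order from low to high was treated day 3, treated day 1, day 0, GP day 1 and GP day 3, and the last 3 overlapped. Groups took up 91.1% of the variance of its log2 signal over the arrays and preparation numbers 2.85%. The other Pmp22 probe set, 161442_at, lay at or under the floor of 2.8 on 12 of 15 arrays and reached 15.9 at most, so it measured nothing that could be compared.

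Cd34 was lower in treated cultures by both of its probe sets, and both passed the signal filter. The probe set 160358_at read 150.6, 116 and 76.2 in treated cultures at day 1, against 266.2, 284.8 and 214.9 in GP cultures. At day 3 it read 81.6, 61.5 and 50.1 in treated cultures, against 278, 263.3 and 190.8 in GP cultures. The day 0 arrays read 259, 240.9 and 283.6, within the range of the GP arrays. Treated and GP arrays did not overlap at either day.

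The log2 difference for 160358_at was -1.20 ± 0.25 at day 1 (2.30 times lower) and -1.93 ± 0.25 at day 3 (3.82 times lower). Within preparations 1, 2 and 3 it was -0.82, -1.30 and -1.50 at day 1 and -1.77, -2.10 and -1.93 at day 3. It lay further below 0 at day 3 than at day 1 in each preparation, and the day 3 value minus the day 1 value was -0.95, -0.80 and -0.43. By group mean the order was treated day 3, treated day 1, GP day 3, GP day 1 and day 0, of which the last 3 overlapped throughout, and 90.8% of the variance lay between groups.

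The probe set 97773_at of Cd34 gave the same direction with more scatter. It read 128.8, 70.6 and 59.4 in treated cultures at day 1, against 175.4, 157.2 and 85.5 in GP cultures, and these groups overlapped. At day 3 it read 67.6, 63 and 38.3 in treated cultures, against 173.3, 211.4 and 70.1 in GP cultures, and these did not overlap. Day 0 arrays read 166.8, 234 and 163.9.

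In log2 terms 97773_at differed by -0.71 ± 0.42 at day 1 and -1.33 ± 0.42 at day 3. Within preparations the day 3 differences were -1.36, -1.75 and -0.87. Preparation 3 was lowest in both GP groups, and 24.9% of the variance of this probe set lay between preparations, against 5.33% for 160358_at. Without the GP day 3 array of preparation 3 the day 3 difference was -1.81. On that array the actin probe sets at the 3′ and 5′ ends gave a ratio of 2.11, which bears on RNA integrity, against 1.00 to 1.34 on the others, and its part in these values was not tested.

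**Figure D2:**
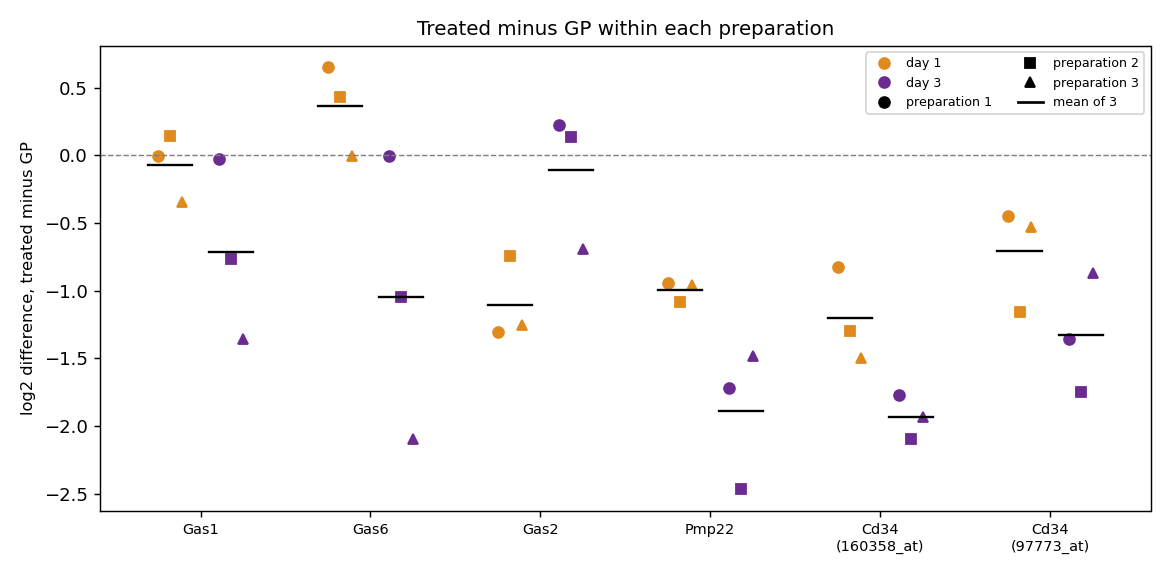
Log2 difference of treated minus GP cultures in each of 3 preparations (marker shape), at day 1 and at day 3, with a bar at the mean of 3, for the 6 tested probe sets. Pmp22 and both Cd34 probe sets are below 0 in every preparation at both days, while Gas1 and Gas6 range from -0.03 to -1.35 and from -0.0057 to -2.09 at day 3.

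Gas1 did not differ between treated and GP cultures at day 1 beyond the spread of the arrays. Its probe set 94813_at read 2321.1, 2780.1 and 1740.9 in treated cultures, against 2332.2, 2519.3 and 2208.2 in GP cultures, and the groups overlapped. At day 3 it read 2161.6, 1375.7 and 706 in treated cultures, against 2204.8, 2342.5 and 1804.5 in GP cultures, and these too overlapped. Day 0 arrays read 2252.3, 2083.4 and 2181.1.

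The preparations of the treated day 3 group disagreed about Gas1. Preparation 1 stayed at the GP level, with a log2 difference of -0.03, while preparations 2 and 3 gave -0.77 and -1.35. The mean difference was -0.72 ± 0.29 at day 3 and -0.07 ± 0.29 at day 1. It was -0.29 at day 3 without the treated array of preparation 3 and -1.09 without that of preparation 1. The other 4 group means, from 2117 to 2353, belonged to groups that overlapped, with GP day 1 above day 0 and above GP day 3 in all 3 preparations.

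Gas6 changed with time in the GP cultures, while its treated groups overlapped with each other and with day 0. Its probe set 99067_at read 810.7, 1013.3 and 840.4 in treated cultures at day 1, against 515.4, 749.3 and 841.6 in GP cultures, with overlap and a log2 difference of 0.36 ± 0.35. At day 3 it read 1043.3, 727.1 and 466.2 in treated cultures, against 1047.4, 1500.8 and 1988.7 in GP cultures. Day 0 arrays read 575.3, 642.5 and 1380.8. The day 3 groups did not overlap, but the treated array of preparation 1 lay just under the GP array of that preparation.

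The day 3 difference of Gas6 was -1.05 ± 0.35 (2.07 times lower in treated cultures), and within preparations 1, 2 and 3 it was -0.0057, -1.05 and -2.09. It was -0.53 without preparation 3 and -1.57 without preparation 1. In GP cultures Gas6 was higher at day 3 than at day 1, with log2 differences of 1.02, 1.00 and 1.24 within the preparations and a mean of 1.09 ± 0.35. The arrays of the later day all lay above those of the earlier day, as did 5.38% of all tested probe sets. In treated cultures the same differences, day 3 minus day 1, were 0.36, -0.48 and -0.85. The GP day 3 array of preparation 3, with the actin ratio of 2.11, carried the highest Gas6 value, and without it the GP difference between days was 0.87 and the day 3 difference between treated and GP cultures was -0.83. By group mean the order was GP day 1, treated day 3, day 0, treated day 1 and GP day 3, and no neighbours among the first 4 differed beyond their spread.

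Gas2 was set more by the preparation than by the group. Its probe set 94338_g_at, whose manufacturer's suffix marks sequence shared with other transcripts, read 43.4, 76.8 and 168 in treated cultures at day 1, against 107.4, 128.6 and 400.7 in GP cultures. At day 3 it read 148.5, 164.1 and 241.2 in treated cultures, against 127.1, 149.4 and 388.7 in GP cultures, and day 0 arrays read 88.3, 100.3 and 361.7. The preparation 3 array was the highest in all 5 groups, and preparations held 65.9% of the variance against 26.7% for groups.

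Treated and GP arrays of Gas2 overlapped at both days. Within preparations 1, 2 and 3 the log2 difference was -1.31, -0.74 and -1.25 at day 1, with a mean of -1.10 whose SE was 0.64 in the fit by group and 0.23 with the preparation as a block. That mean was -0.51 without the GP array of preparation 3. At day 3 the differences were 0.22, 0.14 and -0.69, with a mean of -0.11 that became 0.39 without the GP array of preparation 3. From day 1 to day 3 the treated arrays gained 1.77, 1.10 and 0.52. The dim Gas2 probe set 94337_at ranged from 1.6 to 22.2 and was not compared.

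**Figure D3:**
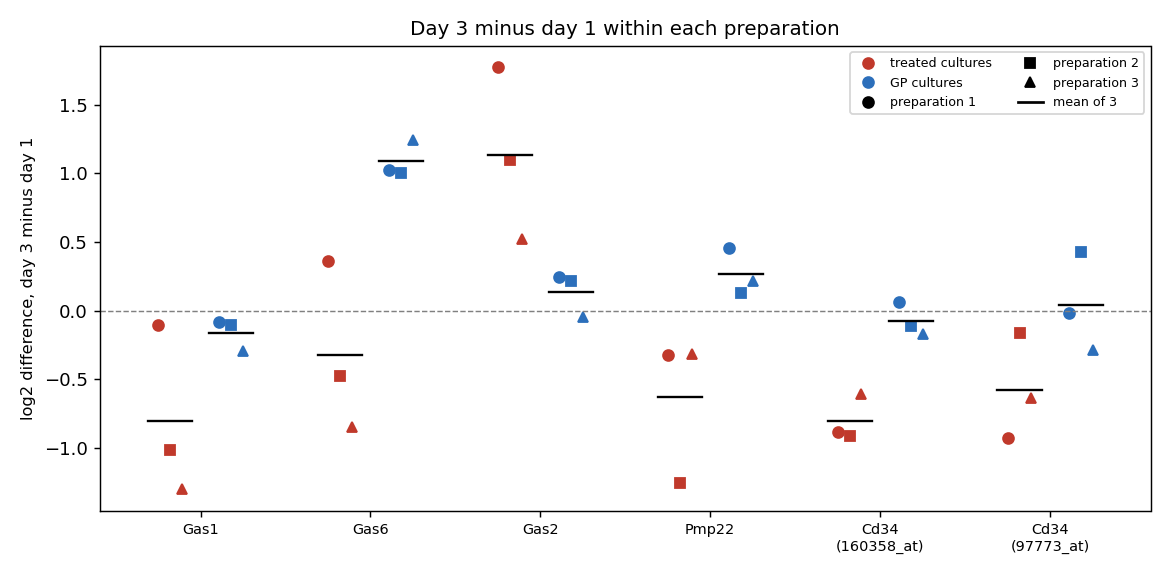
Log2 difference of day 3 minus day 1 in each of 3 preparations (marker shape), in treated and in GP cultures, with a bar at the mean of 3, for the 6 tested probe sets. Gas6 is between 1.00 and 1.24 in all GP preparations, and Pmp22 is below 0 in all treated and above 0 in all GP preparations.

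Between day 3 and day 1 Pmp22 went opposite ways in the treated and GP cultures. The treated arrays were lower at day 3 without overlap, as were 5.72% of all tested probe sets, with a mean log2 difference of -0.63 and values of -0.32, -1.25 and -0.32 within the preparations. That mean was -0.32 without preparation 2. The GP arrays were higher at day 3 in all preparations, by 0.46, 0.13 and 0.21, but overlapped with those of day 1. Cd34 160358_at was lower at day 3 in treated cultures, by a mean of -0.80 and in all 3 preparations, while in GP cultures its differences were 0.06, -0.11 and -0.17. Gas1 was lower at day 3 in all 3 preparations of both culture types, by -0.10, -1.01 and -1.30 in treated and -0.08, -0.10 and -0.29 in GP cultures. The means were -0.81 and -0.16, and they were -0.38 without the treated day 3 array of preparation 3 and -0.05 without the GP day 3 array of that preparation.

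Compared with day 0, the GP arrays of day 1 showed no member with groups that did not overlap. Among all tested probe sets 3.56% lay wholly lower and 5.62% wholly higher at GP day 1 than at day 0. The mean log2 differences, GP day 1 minus day 0, ran from -0.48 (Cd34 97773_at) to 0.26 (Gas2). Against the same day 0 arrays, Pmp22 stood at -0.97 at day 1 and -1.60 at day 3 in treated cultures, and Cd34 160358_at stood at -1.24 and -2.05. These values share the day 0 arrays.

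The name growth-arrest-specific was checked against 20 tested proliferation genes, such as Mki67, Cdk1 and the Mcm helicase subunits, of 23 listed. The median over these genes of the log2 difference from the day 0 array of the same preparation was 1.21 ± 0.36 (SD, n = 3) in treated and 0.81 ± 0.20 in GP cultures at day 1, and 0.80 ± 0.22 in treated and -0.11 ± 0.23 in GP cultures at day 3. The GP day 3 and day 0 cultures thus had the lowest proliferation signal. Gas6 averaged 1512 ± 471 at GP day 3 and 866 ± 447 at day 0, Gas1 2117 ± 279 and 2172 ± 85, and Gas2 222 ± 145 and 183 ± 155 (SD, n = 3 each). In GP day 1 cultures, where proliferation genes were higher, Gas6 averaged 702 ± 168, Gas1 2353 ± 157 and Gas2 212 ± 164. Of the 3, only Gas6 between GP day 3 and GP day 1 had groups that did not overlap. Between treated and GP cultures at day 3, where proliferation genes were higher in treated cultures, the log2 differences were -1.89 for Pmp22, -1.93 and -1.33 for the Cd34 probe sets, -1.05 for Gas6, -0.72 for Gas1 and -0.11 for Gas2. The GP day 1 and treated day 3 cultures had proliferation medians of 0.81 and 0.80. Single genes differed both ways between these groups, so near medians do not make them alike in proliferation. Cdc20 averaged 1038 at GP day 1 and 722 at treated day 3, and Mki67 418 and 247. Mcm2 averaged 255 and 377, and Mcm4 273 and 459, in the same order. In that order Pmp22 averaged 946 ± 109 and 318 ± 102, and Cd34 160358_at 255 ± 36 and 64 ± 16. Cd34 97773_at averaged 139 ± 48 and 56 ± 16, and Gas1 2353 ± 157 and 1414 ± 729. Gas6 averaged 702 ± 168 and 746 ± 289, and Gas2 212 ± 164 and 185 ± 50. At GP day 3 and day 0 Pmp22 averaged 1144 ± 189 and 929 ± 67, and Cd34 160358_at 244 ± 47 and 261 ± 21. Whether members and proliferation genes vary together was not tested.

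Proliferation genes themselves were higher in treated than in GP cultures at day 3, where 11 of 20 passed limma's adjusted threshold of 0.05 and 0 were lower. With the preparation as a block 18 of 20 were higher. Their median difference was 0.90 on the log2 scale, against 0.00087 over all tested genes. The mitotic kinase gene Aurkb averaged 259 ± 34 in treated and 104 ± 11 in GP cultures (log2 1.32 ± 0.16, adjusted p = 0.000707). Plk1, another mitotic kinase gene, averaged 403 ± 26 and 167 ± 30 in the same order (1.29 ± 0.17, adjusted p = 0.00128). Cdc20, an activator of the anaphase-promoting complex, averaged 722 ± 61 in treated and 362 ± 77 in GP cultures (adjusted p = 0.00422), and Cdk1 averaged 921 ± 39 and 407 ± 58 (adjusted p = 0.00459).

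Among all tested probe sets at day 3, 2.03% passed as higher and 2.08% as lower in treated cultures, and 6.84% and 6.99% with the block. At day 1 the shares were 0.295% higher and 0.631% lower, and 2.07% and 2.92% with the block. An unadjusted p under 0.05 was found for 16.7% of all tested probe sets at day 3 and 11.3% at day 1, against which the unadjusted counts of each list stand. At day 1 no proliferation gene passed in limma's fit by group, 8 had an unadjusted p under 0.05, and 3 (Mcm2, Mcm7 and Rrm2) were higher with the block. The Plk1 probe set carries the suffix for shared sequence. A second Mki67 probe set past the filter differed by -0.13 at day 3, against 0.68 for the one used. A second Foxm1 probe set differed by 2.27, against 0.44 for the one used. Without preparation 2, 0 of the 15 calls on related genes given here remained, and without preparation 1, 1 did, while all 15 remained without preparation 3.

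In GP cultures the proliferation genes were highest at day 1. At GP day 1 against day 0, 6 of 20 rose and 0 fell (10 and 0 with the block), where 0.242% of all probe sets rose (0.711% with the block). Cdc20 averaged 1038 ± 104 at GP day 1 and 395 ± 66 at day 0 (log2 1.40 ± 0.16, adjusted p = 0.0024). Ccnb2, a mitotic cyclin gene, differed by 1.08 ± 0.13 (adjusted p = 0.0025), Birc5, a chromosomal passenger gene, by 1.57 ± 0.22 (adjusted p = 0.00957) and Mki67 by 1.39 ± 0.22 (adjusted p = 0.0195).

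At GP day 3 against GP day 1, 10 of 20 fell and 0 rose (12 and 0 with the block), where 0.671% of all probe sets fell (1.41% with the block). Cdc20 averaged 362 ± 77 at GP day 3 and 1038 ± 104 at GP day 1 (log2 -1.54 ± 0.16, adjusted p = 0.000998). Ccnb2, Plk1 and Aurkb differed by -1.20, -1.37 and -1.32 (adjusted p = 0.000998, 0.00182 and 0.00172). In treated cultures 0 of 20 passed as lower at day 3 against day 1 in limma's fit by group, 5 did with the block and 9 had an unadjusted p under 0.05, where 0.0537% of all probe sets fell (1.81% with the block).

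Of 30 listed quiescence and cell cycle exit genes, 22 were tested, and 1 was lower and 0 were higher in treated than in GP cultures at day 3. It was Txnip, which encodes a thioredoxin-binding protein that restrains glucose uptake. Txnip averaged 153 ± 53 in treated and 664 ± 56 in GP cultures (log2 -2.17 ± 0.28, adjusted p = 0.00117). A second Txnip probe set differed by -0.26, and the one used carries the suffix for probes shared between transcripts. With the block Ndn, Cdkn2c and Cited2 were also lower, with differences of -0.71, -0.41 and -0.57. At day 1 none passed in limma's fit by group, 2 of 22 had an unadjusted p under 0.05, against 11.3% of all tested probe sets, and with the block Txnip (-1.01) and the forkhead factor gene Foxo3 (-0.64) were lower. The list's median was -0.14 at day 3 and -0.23 at day 1.

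The cyclin-dependent kinase inhibitor genes Cdkn1a and Cdkn1b, which hold cells out of division, did not pass at day 3, with differences of 0.37 ± 0.54 and 0.69 ± 1.23. In limma's fit by group this list therefore gave 1 call at day 3. Of the 22 tested genes, 5 had an unadjusted p under 0.05 at day 3, against 16.7% of all tested probe sets. With the block 4 of 22 were lower at day 3, against 6.99% of all tested probe sets. Most tested genes of the list passed in neither direction.

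Beside Gas6, 5 genes for its receptors, for the related ligand Pros1 and for vitamin K-dependent carboxylation were tested of 6 listed, and the receptor gene Axl was under the signal filter. At day 3 Tyro3, a receptor of Gas6, was higher in treated cultures, at 120 ± 12 against 58 ± 9.7 in GP cultures (log2 1.06 ± 0.24, adjusted p = 0.0231). This call was lost without the treated array of preparation 1 or 3 or the GP array of preparation 1 or 2, with adjusted p between 0.0632 and 0.103. Another, dimmer Tyro3 probe set differed by -0.29. Pros1 averaged 432 ± 114 in treated and 261 ± 36 in GP cultures and passed as higher only with the block (adjusted p = 0.321 without it and 0.00602 with it). The receptor gene Mertk differed by -0.25 ± 0.43 at day 3, and at day 1 it was lower with the block (-0.92, adjusted p = 0.0426). At day 1 no gene of the 5 passed in limma's fit by group and 0 had an unadjusted p under 0.05. By mean difference at day 3 Gas6 was lower and this Tyro3 probe set higher in treated cultures, but Gas6 differed by only -0.0057 in preparation 1. The Tyro3 probe set used carries the suffix for probes shared between transcripts.

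**Figure D4:**
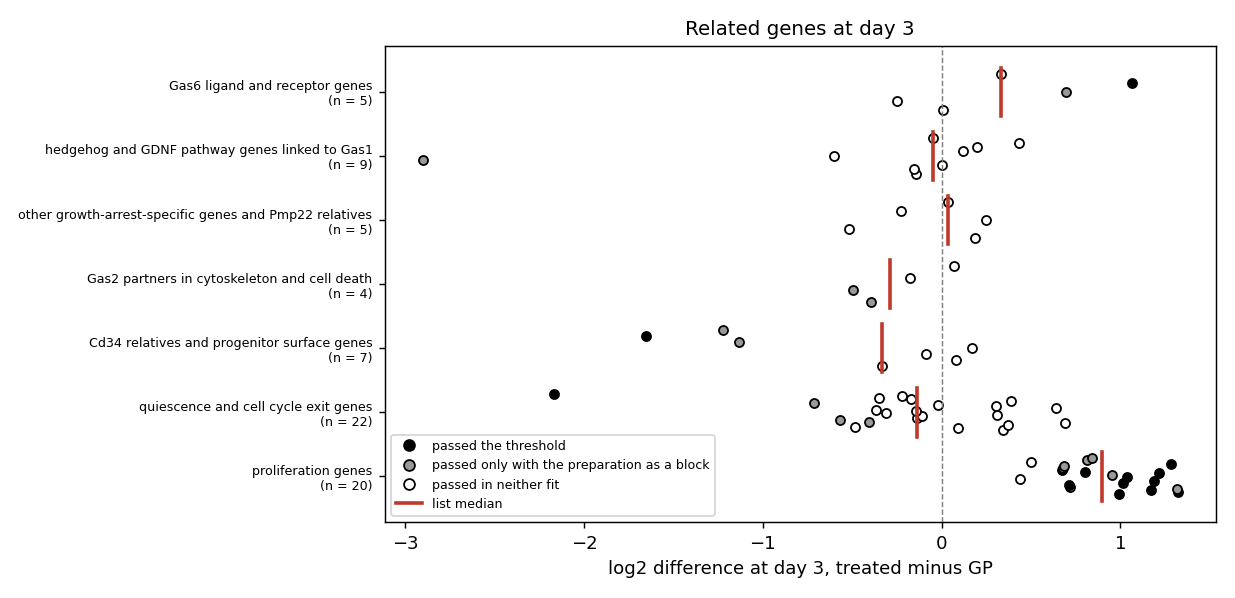
Log2 difference of treated minus GP cultures at day 3 for each tested gene of 7 lists, with filled points for genes past the adjusted threshold of 0.05, grey points for those past it only with the preparation as a block, and a red bar at each list's median. The 20 proliferation genes, each read from its brightest probe set, are all above 0, with a median of 0.90. The other lists lie on both sides of 0.

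For Gas1, 9 genes of hedgehog and GDNF signalling were tested of 17 listed, and none passed at day 3 in limma's fit by group (1 had an unadjusted p under 0.05). Gfra1, which encodes a receptor for GDNF, averaged 12.4 ± 7.9 in treated and 112 ± 86 in GP cultures, and passed as lower only with the block (adjusted p = 0.244 without it and 0.000783 with it). Its treated mean lay under the signal filter of 22.3, which the gene passed through its other groups, so no size is given for the difference. The hedgehog target Ptch1 and the signal transducer Smo differed by 0.43 ± 0.30 and -0.05 ± 0.23. At day 1 none of the 9 passed by either fit, and 0 had an unadjusted p under 0.05.

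Of the other growth-arrest-specific genes and the relatives of Pmp22, 5 were tested of 8 listed, and none passed at either day by either fit. At an unadjusted p under 0.05 there were 0 at day 3 and 1 at day 1. Emp1, Emp2 and Emp3, which encode membrane proteins of the same family as Pmp22, differed at day 3 by 0.19 ± 0.17, -0.52 ± 0.33 and 0.25 ± 0.21. Gas5, a noncoding host gene of small nucleolar RNAs, and Gas8, a gene of motile cilia, differed by -0.23 ± 0.17 and 0.03 ± 0.15. A second Gas5 probe set differed by -1.04.

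For Gas2, the calpain protease genes Capn1 and Capn2 and the cytoskeletal genes Macf1 and Mapre1 were tested of 7 listed. None passed in limma's fit by group at day 3, where 2 had an unadjusted p under 0.05, or at day 1, where 1 did. With the block Capn1 and Capn2 were lower in treated cultures at day 3, at 414 ± 13 against 546 ± 26 in GP cultures and at 417 ± 78 against 582 ± 40 in GP cultures.

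Of the genes for Cd34's relatives and for progenitor surface proteins, 7 were tested of 12 listed. Thy1, a surface glycoprotein gene of mesenchymal and lymphoid cells, was lower in treated cultures at day 3, at 289 ± 132 against 863 ± 192 in GP cultures (log2 -1.65 ± 0.31, adjusted p = 0.00964). With the block the adhesion molecule gene Vcam1 (-1.22 ± 0.53) and the growth factor receptor gene Pdgfra (-1.14 ± 0.31) were lower too. Their adjusted p was 0.255 and 0.0535 without the block and 0.00218 and 0.00808 with it. Eng, Cd44 and Itgb1 differed by -0.09, -0.33 and 0.17. At day 1 none of the 7 passed by either fit and 0 had an unadjusted p under 0.05, and the list's median was -0.34 at day 1 and -0.33 at day 3. Another 2 Vcam1 probe sets differed by -1.49 and -1.57 at day 3, and a second Pdgfra probe set by -0.47.

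The genes whose log2 signal over the 15 arrays was most like that of each member were ranked among 5643 tested genes by Pearson's r, after each preparation's mean was subtracted. The arrays share 5 groups and 3 preparations, so r is a description. For Pmp22 they were Nid2, a basement membrane gene, Glrx, a glutaredoxin gene, and R3hcc1 (r = 0.98, 0.97 and 0.97). For Cd34 160358_at they were Rspo2, a Wnt potentiator gene, Nid2 and Id4, an inhibitor of helix-loop-helix factors (0.97 each). For Cd34 97773_at they were the calpastatin gene Cast, Rspo2 and Cacna1a (0.95, 0.95 and 0.93). Nid2 thus stood on a list of Pmp22 and on a list of Cd34, and Rspo2 only on those of the Cd34 probe sets.

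For Gas1 the nearest genes were Chrna7, the thrombin receptor gene F2r and Tpd52l1 (r = 0.93, 0.92 and 0.91). For Gas6 they were the cathepsin gene Ctsh, Nucb1 and Tmem50b (0.86, 0.84 and 0.83), and for Gas2 they were Zscan21, Vegfb and Ptpn13 (0.90, 0.89 and 0.89). None of these lists held another member. Pmp22 and Cd34 160358_at still had an r of 0.94 with each other, and Pmp22 and Cd34 97773_at an r of 0.84. The next highest r between different members was 0.68, for Gas1 and Cd34 160358_at, and the lowest was 0.03, for Gas1 and Gas2.

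Markers of the cells that usually carry Cd34 or Pmp22 were checked on the same arrays. Of 8 endothelial markers, only Flt1 passed the signal filter, and the defining genes Cdh5, Tek and Vwf had medians of 3.4, 4.7 and 5.4. Their summed intensity ranged from 109 to 194 in treated and from 106 to 176 in GP cultures at day 3, and from 93.2 to 146 and from 97.4 to 175 at day 1. Of 6 blood and macrophage markers only Csf1r passed, and Ptprc, the CD45 gene, was at the floor on 13 of 15 arrays. Their sum ranged from 67.2 to 88.9 in treated and from 68 to 109 in GP cultures at day 3. At day 1 it ranged from 55.6 to 74.7 in treated and from 88.2 to 106 in GP cultures, without overlap. Csf1r had the largest median in this sum, 45.5, and the others, under the filter, had medians from 1.2 to 17.4. Of all tested probe sets 8.63% lay wholly lower in treated cultures at day 1. The part of this sum in the Cd34 difference was not tested.

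Of 4 Schwann cell and myelin markers on the array Mbp, S100b and Mag passed the filter, with medians of 34.2, 52.3 and 47.4. Their sum with Pou3f1 ranged from 119 to 178 in treated and from 172 to 200.5 in GP cultures at day 3, and from 114 to 145 and from 133 to 163 at day 1, and its part in the Pmp22 difference was not tested. Of 5 adipocyte markers only Cebpa passed, and Pparg was at the floor on all 15 arrays. The adipocyte sum ranged from 203 to 323 in treated and from 208 to 268 in GP cultures at day 3. Of the osteoblast markers on the array 5 of 6 passed, led by Col1a1, Col1a2 and Sparc with lowest values of 6727, 6991 and 2156. Alpl ranged from 10.2 to 970.9 with a median of 33.4, and Ibsp was under the filter with a median of 19.6. Of the 9 listed, Runx2, Bglap and Spp1 had no probe set named for them alone, so these markers alone do not identify the lineage. The osteoblast sum ranged from 21949 to 26901 in treated and from 16532 to 22851 in GP cultures at day 3. Of 5 fibroblast and mesenchyme markers 4 passed, and Vim, which ranged from 5 to 37.8 with a median of 17.6, did not. The sum of all 5 ranged from 9364 to 14124 in treated and from 7023 to 12567 in GP cultures at day 3. Whether dim markers on any of these lists mean absent transcripts or weak probe sets was not tested.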

How the data were processed

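The authors deposited linear intensities per probe set for each array, and the software that made them is not given in the sources used here. The values show that the arrays had been scaled: the mean between the 2nd and 98th percentiles was 149.1 to 149.97 on every array. Of 12422 probe sets other than the 66 controls, the platform annotation named 10833 with 1 symbol, gave 396 more than 1 and left 1193 unnamed. Entrez identifiers of 10817 matched RefSeq's table of GRCm38.p6, used for names and promoter sequences, and 0 symbols changed. Deposited intensities under 2.8, the 10th percentile, were set to 2.8 and log2 values taken. Probe sets with a mean under 22.3, the 40th percentile, were left out, which left 7453 tested.

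Groups were compared with limma 3.58.1 in R 4.3.3 (lmFit, eBayes with a mean trend, 1 coefficient per group, 10 residual degrees of freedom, 8 with the preparation as a block), Benjamini-Hochberg adjustment over all tested probe sets and a threshold of 0.05, tested on simulated data first. The simulated arrays were independent, with no preparation effect and with changes larger than most differences given here. The simulation therefore does not show how the fit behaves on paired arrays or smaller differences. A gene with more than 1 probe set was read from the brightest. Preparations were taken as pairs because arrays of the same number deviated together from their group means in every pair of groups compared (r from 0.19 to 0.70), although in treated cultures between the days preparation 2 was slightly more like another preparation (0.23 against 0.19). The labels leave unsaid whether each preparation was a culture of its own, so a p-value here reflects only the spread of these samples, possibly technical. The precision is limited by the number of arrays. On GP day 3 preparation 3 and the other preparation 3 arrays 12.1% to 14.3% of values lay at the floor, against 7.30% to 10.0% on the rest.

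The members and the 7 lists of related genes were chosen with earlier results of these data known. Named genes were all member probe sets, from each list up to 4 called genes with the smallest p in each contrast, and the 3 genes most like each tested member. Any other named gene was chosen after its values were seen. Alternatives were the floor, the signal filter, the normalization, the mean trend, the block and leaving out arrays.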

Additional observations from a re-analysis of the deposited data

Results flagged for a closer look

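Pmp22 (102395_at) differed between day 3 and day 1 in opposite directions in the culture types: every preparation was lower at day 3 in treated cultures, with log2 differences from -1.25 to -0.32, and higher in GP cultures, from 0.13 to 0.46. The mean difference in GP cultures was 0.27 ± 0.21 (SE of the fit), and the GP arrays of the days overlapped. Only member probe sets and called genes of the lists were searched for such opposite directions. The treated minus GP difference of day 3 minus that of day 1 was -0.90 (log2) for Pmp22. This was not tested, because Pmp22 was chosen with these values in view.

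Txnip (160547_s_at) showed the same arrangement, with day 3 minus day 1 differences from -0.97 to -0.57 in treated cultures and from 0.21 to 0.74 in GP cultures. The change of the treated minus GP difference between the days was -1.15, and limma's test of that change gave an adjusted p of 0.999784, past no threshold.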

How the results depend on the processing

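The 15 calls on related genes kept their direction under every alternative run. With median scaling, 4 of them were lost (Tyro3 at day 3, adjusted p = 0.0658, and Cdc20, Ccnb2 and Birc5 at GP day 1 against day 0, 0.0673, 0.0939 and 0.0686). Counts of probe sets past the threshold with median scaling were 160 for treated against GP cultures at day 3, 2 for GP day 1 against day 0 and 24 for GP day 3 against GP day 1, in place of 306, 18 and 53, and 7 related genes passed at day 3 in place of 14. Median scaling moved the median of all genes by at most 0.05. Without the mean trend 42 probe sets passed at day 1 in place of 69, and 11 in place of 18 for GP day 1 against day 0. With the filter at the 60th percentile 1 related gene passed at day 1 in place of 0. With the preparation as a block the counts were 372 at day 1, 1031 at day 3, 54 for GP day 1 against day 0, 138 for GP day 3 against GP day 1 and 286 (in place of 11) for treated day 3 against treated day 1, with 6 related genes at day 1 and 30 at day 3, and no call among the 15 was lost. Leaving out arrays or a preparation gave 0 to 119 probe sets at day 1, 2 to 503 at day 3, 0 to 18 for GP day 1 against day 0, 0 to 95 for GP day 3 against GP day 1 and 0 to 95 for treated day 3 against treated day 1, with 0 to 1 related genes at day 1 and 0 to 19 at day 3. The lowest counts came without preparation 1 or 2 and the highest without preparation 3, fits that also had fewer arrays. Calls of Mki67 and Birc5 at GP day 1 against day 0 were also lost without some single arrays. Among the tested members, the treated minus GP difference kept its sign at both days under all 16 alternatives for Gas6, Pmp22 and both Cd34 probe sets. Gas1 at day 1 turned to 0.11 without the treated array of preparation 3, and Gas2 at day 3 to 0.39 without the GP array of preparation 3. The cause of these changes was not tested. Signal near the floor leaves 2 of the 8 member probe sets unread.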
